A study of Sus scrofa with 57 samples.

Results

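The genes C10ORF46, LDOC1L, IFI27L2, GAS2L1, SESN3, CHCHD7, LRRK1, DEAF1, CRYBG3 and SYDE1 were chosen by their RNAseq values in mature adipocytes. No value of the 5 lean pigs fell within the range of the 5 obese pigs, and a small spread was a further criterion. These 10 genes are part of 25285 gene identifiers in the expression tables and of the 10246 genes whose mean FPKM reached 1. FPKM counts sequenced fragments relative to the length of the transcript and the size of the library, so it is a level per length. Since the genes were selected on the contrast between lean and obese pigs, their RNA values are given as a description and without a test.

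The animals were F2 pigs of an intercross between Duroc, a lean production breed, and the Göttingen minipig, which is prone to obesity, and were picked from the extremes of that population. Obese and lean are therefore phenotypes of animals with a mixed genetic background and not of a treatment. Mature adipocytes were freed from retroperitoneal fat with collagenase. RNAseq covered the males pig-402, pig-407, pig-413, pig-525 and pig-577 (lean) and pig-433, pig-473, pig-524, pig-529 and pig-572 (obese). Pig-572 has 2 libraries, of which the second is titled pig-572(B) and carries another number in its description. They were averaged as 1 pig, and results that rest on one of them are marked. DNA methylation was measured in males and females by capture of methylated fragments (mDNAcap) and by reduced representation bisulfite sequencing (RRBS). The mDNAcap table holds 11 lean and 11 obese animals and RRBS covered 11 lean and 12 obese animals. Pig-411 is labelled obese but stands among the lean libraries of the mDNAcap comparison, and it was counted as lean.

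The genes have different functions. SESN3 is a sestrin, a family of stress-induced proteins that restrain the growth kinase mTORC1 when amino acids are short and that FOXO transcription factors switch on. C10ORF46, also named CACUL1, is a cullin-domain protein that binds the cell cycle kinase CDK2, and DEAF1 is a transcription factor with a SAND and a MYND domain. GAS2L1 links actin filaments to microtubules, SYDE1 is a homologue of a synapse assembly protein of worms, LRRK1 is a large kinase that phosphorylates RAB7 in the traffic of endosomes, and CRYBG3 is a very large protein with crystallin domains that anchors protein kinase A. CHCHD7 belongs to the small cysteine-rich proteins of the mitochondrial intermembrane space. IFI27L2 is a member of the IFI27 family of interferon-inducible mitochondrial proteins, and LDOC1L, also named RTL6, derives from the gag gene of an ancient retrotransposon.

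The FPKM tables hold no read counts, so the depth of single RNAseq libraries is unknown, and the study states no more than an average. Lean libraries had 9709 to 10179 genes at an FPKM of 1 or more, and obese libraries 8945 to 10287. Scaled FPKM is the FPKM over a median-of-ratios size factor, which ranged from 0.69 to 1.22 among the libraries. The lowest of them, 0.69, belonged to pig-572(B), against 1.01 for the first library of that pig. In bulk samples, fewer cells of a type and less RNA per cell cannot be told apart.

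Among the 10 genes, 9 were higher and 1, CHCHD7, was lower in obese pigs. Of all 10246 genes tested, 424 (4.14%) had no overlap between the groups, 239 of them (2.33%) higher and 185 (1.81%) lower in obese pigs. As the lack of overlap was the reason for the choice, nothing is read from the count among the 10 genes.

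SESN3 (ENSSSCG00000014966, Sscrofa10.2 chromosome 9, 31043642 to 31068217) had scaled FPKM values of 2.83, 6.57, 3.04, 2.91 and 4.13 in the lean pigs pig-402, pig-407, pig-413, pig-525 and pig-577. The obese pigs pig-433, pig-473, pig-524, pig-529 and pig-572 had 9.78, 10.6, 8.35, 10.04 and 10.7. Lean pig-407 stood above the rest of its group but below all obese pigs. The mean was 3.9 ± 1.59 (SD, n = 5) in the lean group and 9.9 ± 0.946 (SD, n = 5) in the obese group, a 2.54-fold higher level in the obese group. The spread was wide in lean pigs, with a coefficient of variation of 40.7%, and narrow in obese pigs, with 9.56%.

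C10ORF46 (ENSSSCG00000010676, chromosome 14, 140327293 to 140346983) was the gene with the widest separation when the libraries of pig-572 were averaged. Its scaled FPKM, in the same order of pigs, was 2.7, 3.76, 2.53, 3.31 and 2.78 in the lean group and 7.34, 7.43, 6.94, 6.67 and 6.97 in the obese group. Every obese pig was at least 1.77-fold above the highest lean pig. The means were 3.02 ± 0.508 (SD, n = 5) and 7.07 ± 0.313 (SD, n = 5), a ratio of 2.34. The obese pigs differed from each other by a coefficient of variation of only 4.43%, where the median over all genes tested was 16.6% in obese and 20.7% in lean pigs. Pig-572, whose libraries read 5.47 and 8.46, entered with their mean.

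DEAF1 (ENSSSCG00000012850, chromosome 2, 246543 to 269641) had the smallest ratio of the 10 genes, 1.56, together with a small spread. Lean pigs lay at 4.05, 3.7, 3.31, 3.67 and 4.01 and obese pigs at 6.22, 5.37, 6.71, 5.58 and 5.38 scaled FPKM. The group means were 3.75 ± 0.301 (SD, n = 5) and 5.85 ± 0.591 (SD, n = 5). The coefficient of variation in lean pigs, 8.03%, was the lowest of the 10 genes in that group.

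LRRK1 (ENSSSCG00000004823, chromosome 1, 155637550 to 155853766) had 0.923, 2.05, 1.13, 2.72 and 2.29 in lean and 5.69, 4.53, 4.83, 4.68 and 6.03 scaled FPKM in obese pigs. With means of 1.82 ± 0.769 (SD, n = 5) and 5.15 ± 0.666 (SD, n = 5), its ratio of 2.83 was the largest of the 10 genes. The lean pigs differed from each other by up to the ratio of 2.72 to 0.923, and the obese pigs were close together. SYDE1 (ENSSSCG00000013829, chromosome 2, 62006459 to 62014992) was at 1.86, 1.64, 1.18, 1.22 and 0.94 in lean and at 3.68, 2.38, 5.19, 3.7 and 3.82 in obese pigs. Its means were 1.37 ± 0.374 (SD, n = 5) and 3.75 ± 0.993 (SD, n = 5), a ratio of 2.74, and obese pig-473 came nearest to the lean group. GAS2L1 (ENSSSCG00000025564, chromosome 14, 49414569 to 49420179) was at 2.76, 2.19, 1.2, 2.3 and 1.57 in lean and at 5.26, 4.9, 5.64, 4.06 and 4.51 in obese pigs. The means of 2.01 ± 0.618 (SD, n = 5) and 4.87 ± 0.622 (SD, n = 5) gave a ratio of 2.43 with an equal spread in the groups.

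CRYBG3 (ENSSSCG00000021732, chromosome 13, 172665111 to 172695684) had 4.48, 3.84, 2.53, 3.88 and 3.88 in lean and 8.16, 5.44, 6.81, 6.05 and 6.63 scaled FPKM in obese pigs. The means were 3.72 ± 0.72 (SD, n = 5) and 6.62 ± 1.01 (SD, n = 5), a ratio of 1.78, and the lowest obese pig was 1.21-fold above the highest lean pig. The annotation holds a further gene model (ENSSSCG00000022895, chromosome 13, 172696363 to 172707950) that begins 679 bases beyond this locus. It carries no symbol in the expression tables, but the reference list of gene names gives it the symbol CRYBG3 as well. Its scaled FPKM was 2.37, 2.09, 1.51, 1.89 and 2.07 in lean and 5.27, 3.45, 4.27, 3.33 and 3.94 in obese pigs. The values of this model were separated as well, with means of 1.98 ± 0.317 (SD, n = 5) and 4.05 ± 0.78 (SD, n = 5). Within the groups it followed the first model, with a Pearson correlation of 0.92 of the log2 deviations from the group means over 10 pigs. Both models come from the same libraries, so this is a description and no independent replicate.

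**Figure D1:**
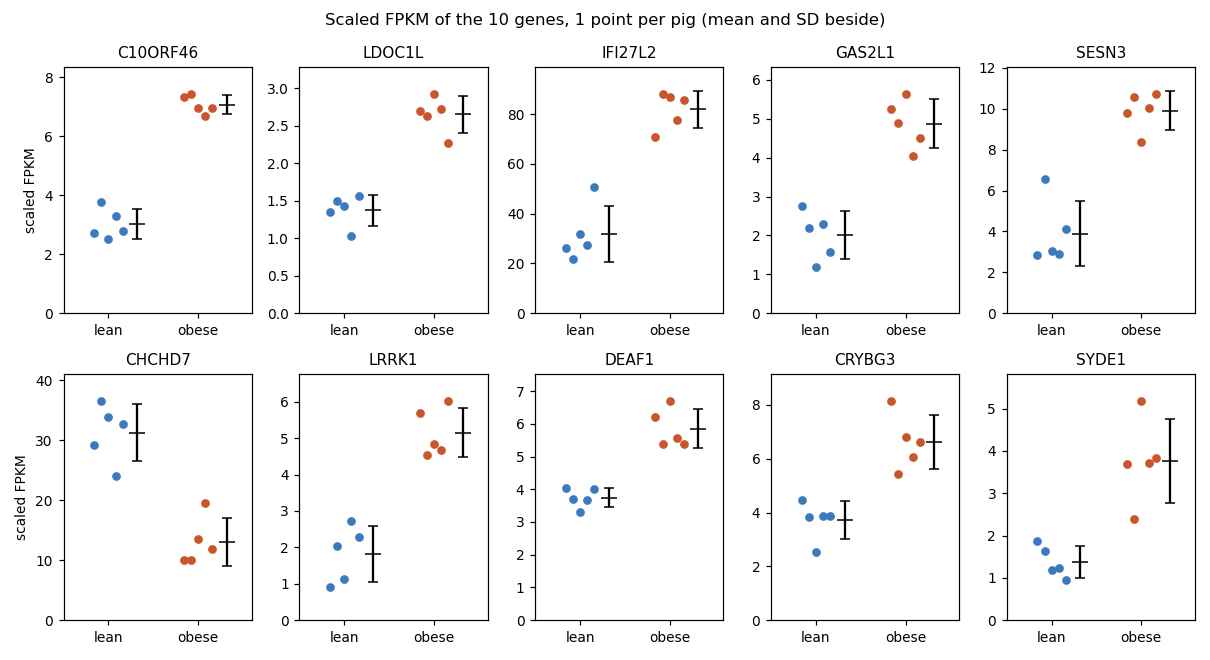
Scaled FPKM (vertical axis, from 0, a different range in each panel) of each of the 10 genes in the 5 lean and the 5 obese pigs, 1 point per pig, with the mean and SD of each group beside the points. CHCHD7 lies lower and the other 9 genes lie higher in obese pigs, with lean pig-407 for SESN3 and lean pig-577 for IFI27L2 apart from their group.

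The genes of mitochondrial proteins lay on opposite sides. CHCHD7 (ENSSSCG00000006246, chromosome 4, 82561109 to 82562572) was the gene that was lower in obese pigs. Lean pigs had 29.3, 36.6, 33.8, 24.1 and 32.7 and obese pigs had 9.99, 9.99, 13.6, 19.6 and 11.8 scaled FPKM. The means were 31.3 ± 4.82 (SD, n = 5) and 13.0 ± 3.97 (SD, n = 5), so that the lean group was 2.41-fold higher. Obese pig-529 was nearest to the lean group, and lean pig-525 lay 1.23-fold above it. IFI27L2 (ENSSSCG00000002472, chromosome 7, 122228313 to 122229025) was the most abundant of the 10 genes, at the 91.1st percentile of the mean FPKM of all genes tested. Its scaled FPKM was 26.4, 21.7, 31.8, 27.6 and 50.8 in lean and 71.0, 88.2, 86.9, 77.7 and 85.7 in obese pigs. Lean pig-577 stood apart from its group, and the means of 31.7 ± 11.3 (SD, n = 5) and 81.9 ± 7.35 (SD, n = 5) differed by a ratio of 2.59.

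LDOC1L (ENSSSCG00000000022, chromosome 5, 2004884 to 2005603) was the least abundant, at the 19.7th percentile. It had 1.35, 1.5, 1.42, 1.03 and 1.56 in lean and 2.69, 2.63, 2.93, 2.73 and 2.27 scaled FPKM in obese pigs. The means of 1.37 ± 0.208 (SD, n = 5) and 2.65 ± 0.241 (SD, n = 5) gave a ratio of 1.93. Its locus of 720 bases and that of IFI27L2, 713 bases, were the shortest of the 10 genes.

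The coefficient of variation was larger in lean than in obese pigs for 8 of the 10 genes, with CHCHD7 and DEAF1 as the exceptions, where 63.9% of all genes tested had the larger value in lean pigs. The coefficient of variation was under the median of all genes tested for 5 of the 10 genes in lean pigs, and for 8 in obese pigs. A small spread was part of the choice, so nothing is read from these counts. No pig led the group throughout. Of the 9 genes that were higher in obese pigs, lean pig-402 had the highest value of its group in 4 genes and the lowest in 2, lean pig-413 the lowest in 4, obese pig-524 the highest in 4 and obese pig-473 the lowest in 4.

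The separation was expressed as the distance on the log2 scale of scaled FPKM plus 1 between the nearest pigs of the groups, divided by the SD within groups. With the libraries of pig-572 averaged, this gap was 5.21 SD for C10ORF46, the largest of the 424 genes without overlap. It was 3.09 SD for DEAF1 and 3.0 SD for LDOC1L, at ranks 3 and 4, followed by LRRK1 (1.84 SD, rank 13), GAS2L1 (1.76 SD, rank 18) and IFI27L2 (1.44 SD, rank 29). CRYBG3 (1.08 SD, rank 56), SESN3 (0.986 SD, rank 62), CHCHD7 (0.921 SD, rank 71) and SYDE1 (0.882 SD, rank 79) closed the list. The gap in SD was not computed with each library of pig-572 alone, and these ranks rest on the mean of both. With the first library alone, the ratio between the nearest pigs fell from 1.77 to 1.45 for C10ORF46. It fell from 1.45 to 1.07 for LDOC1L, from 1.4 to 1.07 for IFI27L2 and from 1.33 to 1.16 for DEAF1. A gap of this size was not particular to the 10 genes, since 69 other genes ranked above SYDE1. Just beyond SYDE1 stood ADORA1, the A1 adenosine receptor of adipocytes, at rank 80 with 0.865 SD and scaled FPKM of 10.8 to 15.6 in lean and 17.5 to 22.4 in obese pigs, against 0.94 to 1.86 and 2.38 to 5.19 for SYDE1.

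**Figure D2:**
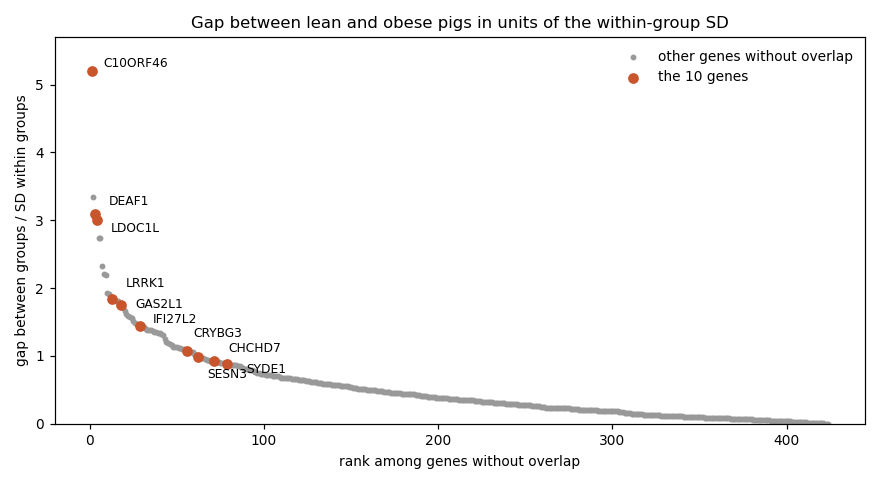
Gap between the nearest lean and obese pigs divided by the SD within groups (vertical axis, log2 scale of scaled FPKM plus 1) against the rank among the 424 genes without overlap. With the libraries of pig-572 averaged, C10ORF46 stands alone at 5.21 SD. The other 9 genes lie between 3.09 and 0.882 SD within the series of the other genes.

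The scaling of the libraries changed the separation of 1 of the 10 genes. In FPKM as deposited, DEAF1 overlapped, because obese pig-572 had 4.46 and lean pig-402 had 4.48, and the other 9 genes stayed apart. Over all genes tested, the count without overlap fell from 424 to 236, 100 higher and 136 lower in obese pigs. With libraries scaled to the summed FPKM without small RNA genes, or to the upper quartile, all 10 genes stayed apart. These scalings gave 397 genes (307 higher and 90 lower) and 392 genes (205 higher and 187 lower). The first of them shifted the median log2 difference of all genes to 0.11, and 9 of the 10 genes had larger ratios under it, such as LRRK1 with 3.16, and CHCHD7 had the weaker ratio of 0.453 against 0.415. The ratio of the lowest value of the higher group to the highest value of the lower group ranged over the scalings from 1.39 to 1.71 for IFI27L2, from 1.24 to 1.42 for SESN3 and from 1.14 to 1.21 for CRYBG3.

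The libraries of pig-572 differed by more than 1.5-fold for 3 of the genes. IFI27L2 read 54.3 in its first library and 117 in pig-572(B), a ratio of 2.16, LDOC1L read 1.67 and 2.86, a ratio of 1.71, and C10ORF46 differed by a ratio of 1.55. Of all genes tested, 2.52% differed by more than 1.5-fold between these libraries, and the median difference was 1.06-fold. With the first library alone, the lowest obese pig was 1.07-fold above the highest lean pig for LDOC1L and for IFI27L2, and 1.45-fold for C10ORF46. With pig-572(B) alone, these ratios were 1.68, 1.4 and 1.77. DEAF1 read 4.7 and 6.06 in these libraries, and its gap was 1.16-fold with the first alone and 1.33-fold with pig-572(B) alone. SESN3, LRRK1 and CRYBG3 had nearly the same value in both libraries (ratios of 1.02, 0.987 and 1.0).

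Leaving out a pig cannot make separated groups overlap, so all 10 genes stayed apart by construction, and the count over all genes rose to between 463 and 1061. The ratio of means moved most for SESN3, from 2.54 to 3.07 without lean pig-407, and for IFI27L2, from 2.59 to 3.04 without lean pig-577. LRRK1 ranged from 2.52 to 3.22, SYDE1 from 2.48 to 3.02, and DEAF1 stayed between 1.5 and 1.59. CHCHD7 lay between 0.362, without obese pig-529, and 0.439, without obese pig-433. Cufflinks gave lower and upper bounds for each FPKM value. After scaling, the bounds of all lean and all obese libraries stayed apart for 6 of the 10 genes, namely C10ORF46, GAS2L1, SESN3, LRRK1, CRYBG3 and SYDE1. The margin was narrow for CRYBG3, with 4.92 in obese against 4.91 in lean libraries, and for SYDE1, with 2.16 against 2.04. For LDOC1L, the lowest bound in an obese library was 1.22 and the highest in a lean library 2.06. IFI27L2, CHCHD7 and DEAF1 also had bounds that touched, and for DEAF1 by 4.31 against 4.42.

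**Figure D3:**
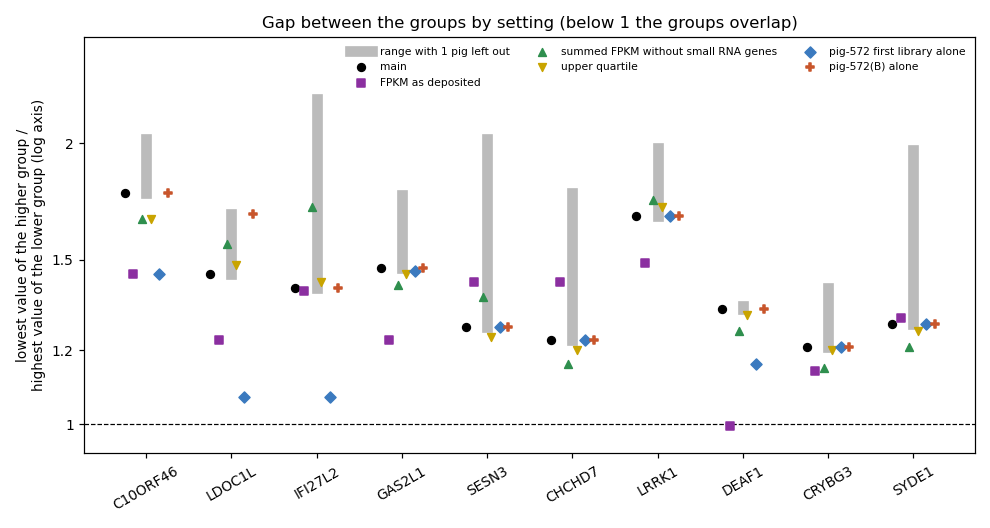
Ratio of the lowest value of the higher group to the highest value of the lower group (vertical log axis, 1 marked by the dashed line, below which the groups overlap) for each gene, with symbols for the scalings and for each library of pig-572, and a grey bar for the range when 1 pig is left out. DEAF1 in FPKM as deposited, at 0.996, is the single point below 1, and LDOC1L and IFI27L2 with the first library of pig-572 alone, at 1.07, come next.

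Within the groups, the 10 genes did not vary as 1 set. The 45 pairwise Pearson correlations of the log2 deviations from the group means, over 10 pigs, had a median of 0.03 and ranged from -0.52 to 0.74, with 8 of them above 0.5 and 1 below -0.5. CRYBG3 went with DEAF1 (0.74) and GAS2L1 (0.73), and SESN3 with C10ORF46 (0.65). IFI27L2 ran against C10ORF46 (-0.52). The points share libraries and scaling, and none of these values was tested. By the same measure, the gene closest to LRRK1 among all genes tested was ENSSSCG00000022104, an unnamed gene model inside the LRRK1 locus (0.96). GAS2L1 was closest to PDE12 (0.99), CRYBG3 to ADD1 (0.97), IFI27L2 to ACP6 (0.95) and SYDE1 to SNAP29 (0.95). CHCHD7 was closest to USP46 (0.93), LDOC1L to ENSSSCG00000024917 (0.92), DEAF1 to EID1 (0.92), SESN3 to SMG6 (0.91) and C10ORF46 to IFITM1 (0.91). Each value for a closest gene is the highest over all genes tested, on 10 pigs. A search over so many genes finds high values between unrelated genes as well, so nothing is read from their size. None of these 10 closest genes was itself free of overlap between lean and obese pigs.

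Within 50 kb of the 10 loci lay 15 tested genes, and the further CRYBG3 model was the 1 of them without overlap, compared with 4.14% of all genes tested. This count was 2 with upper quartile scaling and 3 with scaling to the summed FPKM without small RNA genes. ENSSSCG00000022104, inside the LRRK1 locus, had 0.27 to 1.42 in lean and 1.41 to 2.38 scaled FPKM in obese pigs, so its groups just touched. ALDH1A3, a retinaldehyde dehydrogenase whose locus also lies inside that of LRRK1, went the other way, with 1.28 ± 0.752 (SD, n = 5) in the lean group and 0.698 ± 0.294 (SD, n = 5) in the obese group and an overlap. ILVBL overlaps the SYDE1 locus and had 6.59 ± 0.803 (SD, n = 5) and 6.34 ± 0.552 (SD, n = 5). The libraries came from a stranded kit and Cufflinks was run with its default settings, and how fragments were divided between overlapping loci was not tested, so these values are uncertain.

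ISG12(A), an IFI27 family gene 7768 bases from IFI27L2, ranged from 50.8 to 392 in lean and from 89.9 to 183 in obese pigs, so the groups of this neighbour overlapped fully. On its far side, DDX24 had 6.48 ± 0.972 (SD, n = 5) and 7.89 ± 0.388 (SD, n = 5). SDR16C5, a retinol dehydrogenase 42548 bases from CHCHD7, had 136 ± 41.3 (SD, n = 5) in the lean group and 296 ± 140 (SD, n = 5) in the obese group, with values that overlapped. Around DEAF1, PDDC1 (28.7 ± 7.74 and 45.5 ± 11.7, SD, n = 5 each), TALDO1 (245 to 445 and 338 to 450), TMEM80 (2.79 ± 0.296 and 2.61 ± 0.413) and the interferon factor IRF7 (2.08 ± 2.33 and 1.82 ± 0.859) overlapped between lean and obese pigs. RHBDD3, EWSR1 and AP1B1 near GAS2L1 and the small RNA gene U6 near SYDE1 overlapped as well. In limma, the adjusted p-value of none of the 15 genes was under 0.05, the lowest being 0.0563 for the further CRYBG3 model.

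Methylation near the genes was a measure that the choice had not used. The deposited mDNAcap table lists 7401 regions that the authors had selected as different between these same lean and obese animals. It gives a normalized read count per animal, with no animal named beside a value. Regions that do not differ are not in that table, and the test below is therefore no independent proof of a difference. In limma over 11 lean and 11 obese animals, with 1 added to each normalized count before the log2, 7118 regions (96.2%) of the 7401 passed an adjusted p-value of 0.05, 2009 of them (27.1%) higher and 5109 (69.0%) lower in obese pigs. Within 50 kb of the 10 genes lay 9 of these regions, at 4 genes, and all 9 passed the threshold, 6 hyper-methylated and 3 hypo-methylated in obese pigs. Of all genes tested, 30.1% had such a region within 50 kb and 1046 had one on the locus, compared with 4 and 2 of the 10 genes. No region was listed within 50 kb of SESN3, C10ORF46, IFI27L2, CHCHD7, CRYBG3 or SYDE1 in any of the tables. The nearest to SESN3 lay at 65484 bases.

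DEAF1 held 5 of the 9 regions, all hyper-methylated. Inside its locus, the region chr2:260901-262100 had normalized counts of 20.2 to 42.4 (median 32.6) in lean and 26.1 to 58.7 (median 37.7) in obese animals, and 8 of 11 obese animals lay above the lean median. The second, chr2:262601-264000, had 20.7 to 41.4 (median 33.0) and 29.1 to 59.4 (median 42.4), and 10 of 11 obese animals lay above the lean median. The third, chr2:266101-267300, had 19.5 to 41.7 (median 23.6) and 25.3 to 58.1 (median 33.9), with 11 of 11 obese animals above the lean median. The groups overlapped in all of these regions. The log2 differences in limma were 0.40 (SE 0.165, adjusted p = 0.0227), 0.45 (SE 0.149, adjusted p = 0.00967) and 0.40 (SE 0.153, adjusted p = 0.0166). Outside the locus, chr2:202801-203800, on the locus of TALDO1, had 2.28 to 13.6 in lean and 9.23 to 29.1 in obese animals (log2 difference 0.83, SE 0.234, limma adjusted p = 0.00849). On the other side, chr2:294401-295400, on the locus of the hormone gene SCT, had 6.59 to 22.4 and 8.25 to 32.8 (log2 difference 0.57, SE 0.206, limma adjusted p = 0.0132).

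RRBS gives the methylated share of CpGs, but the deposited regions hold only the mean of each group, with no value or coverage per animal, so no error can be given. These regions, too, had been selected on the difference between the groups. Around DEAF1, the table that required values in at least 3 pigs per group lists chr2:306381-306651, on the locus of PHRF1, with 72.0% in obese and 44.6% in lean pigs over 10 CpGs. It also lists chr2:228422-228675, on the locus of EPS8L2, where the direction was the opposite, with 60.3% and 75.0%. The stricter table with at least 5 pigs per group holds no region within 50 kb of DEAF1.

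GAS2L1 was the gene with regions of both assays at the same place. The mDNAcap region chr14:49420301-49421700 begins 122 bases beyond the GAS2L1 locus, on the locus of the neighbour RASL10A, a Ras-like GTPase. Its normalized counts were 2.02 to 26.3 (median 12.7) in lean and 14.5 to 28.0 (median 19.6) in obese animals, and 11 of 11 obese animals lay above the lean median (log2 difference 0.76, SE 0.241, limma adjusted p = 0.00895). Inside it, the RRBS region chr14:49420628-49420719 of the table with at least 5 pigs per group had a mean methylation of 17.2% in obese and 4.66% in lean pigs over 10 CpGs, a difference of 12.5 points. Both assays thus listed higher methylation in obese pigs there, on DNA of the same animals. RASL10A itself had a mean scaled FPKM of 0.00918 in lean pigs and was listed at 0 in all obese libraries. Of all genes tested, 5.53% had an RRBS region of that table within 50 kb, compared with 1 of the 10 genes.

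The other regions were hypo-methylated in obese pigs. LRRK1 had chr1:155851501-155852500 at the upper end of its locus, with 7.9 to 28.2 (median 18.2) in lean and 2.44 to 24.6 (median 10.4) in obese animals (log2 difference -0.69, SE 0.257, limma adjusted p = 0.0147). A further one, chr1:155871401-155872400, lay 17635 bases beyond the locus, with 7.59 to 18.4 and 2.91 to 17.1 (log2 difference -0.82, SE 0.242, limma adjusted p = 0.00849). LDOC1L had chr5:2020101-2021100, 14498 bases from its locus, with 7.88 to 28.2 (median 16.5) in lean and 4.89 to 17.3 (median 9.67) in obese animals (log2 difference -0.69, SE 0.223, limma adjusted p = 0.00931). In each of these 3 regions, 1 of 11 obese animals lay above the lean median. The RRBS region chr5:2037959-2038185 of the table with at least 3 pigs per group, 32356 bases from LDOC1L, had 62.1% in obese and 78.6% in lean pigs over 12 CpGs. In that table, 3 regions lay within 50 kb of 2 of the genes, and 17.7% of all genes tested had one.

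**Figure D4:**
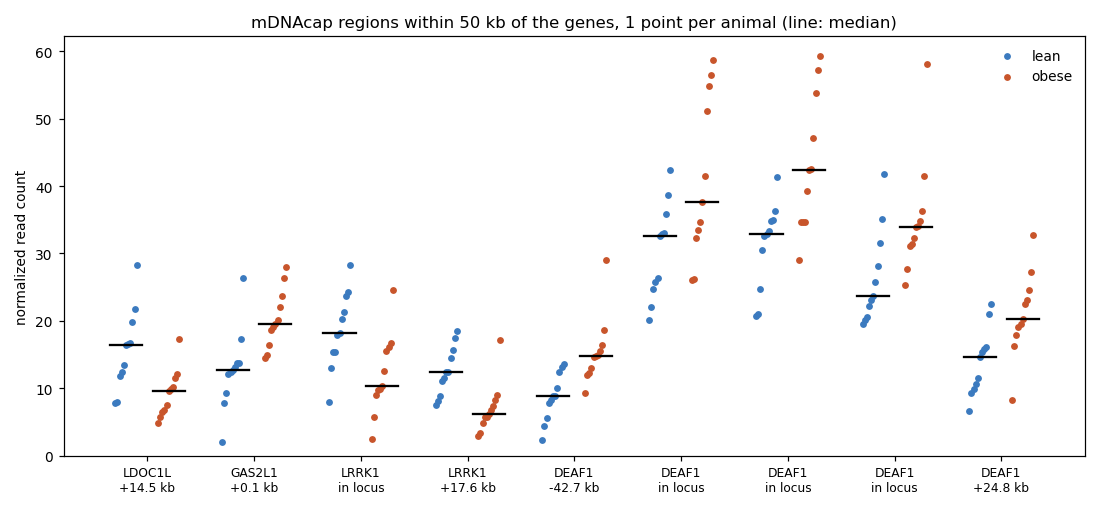
Normalized read counts (vertical axis, from 0) of the 9 mDNAcap regions within 50 kb of the genes, 1 point per animal (11 lean and 11 obese) with the median as a line, and with the distance from the locus and its side (minus for lower coordinates) below. The GAS2L1 region and the 5 DEAF1 regions were higher in obese animals and the LDOC1L region and the 2 LRRK1 regions lower, and the points of the groups overlapped in all 9 regions.

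The lower counts depended on the scaling of the libraries. The mean read count per bin outside the regions, divided by the constant of the library, was 1.94 ± 0.351 (SD, n = 11) in lean animals and 1.59 ± 0.417 (SD, n = 11) in obese animals. With counts rescaled by the median of ratios over the regions, or by the mean read count per bin, the 6 hyper-methylated regions of DEAF1 and GAS2L1 passed the threshold in limma and the 3 hypo-methylated regions of LRRK1 and LDOC1L did not (adjusted p between 0.0577 and 0.143). The balance over all regions turned as well. The first of these scalings left 2902 regions past the threshold, of which 2124 were higher in obese pigs and 778 lower, and the second left 3195, of which 2094 were higher and 1101 lower. The split of 6 and 3 at the 10 genes moved the same way as that of the whole table. With the read count per bin over the library constant entered as a covariate, 0 of the 9 and 0 of all 7401 regions passed in limma. In that fit, 3660 of the 7401 had an unadjusted p-value under 0.05. The log2 differences kept their directions in this fit. They were 0.71 against 0.76 for GAS2L1 and 0.72 against 0.83 for chr2:202801-203800, but 0.24 against 0.40 for chr2:260901-262100 and -0.37 against -0.69 for LDOC1L. The part of the difference in read count per bin in these results was not tested further. The scaling by read count per bin and the covariate assume that the counts stand in the same order as the library constants. No animal is named beside a value in the methylation tables, so methylation and RNA were not compared pig by pig.

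The genes related to the 10 by family or pathway were examined in limma over the pigs, with 5 lean against 5 obese. The adjusted p-value was under 0.05 for 1 of 10246 genes (0.00976%). That gene, C10ORF46, had been chosen on this contrast, so nothing is read from its passing. An unadjusted p-value under 0.05 was found for 2131 genes (20.8%). None of the related genes passed the adjusted threshold, and the counts that follow are those at an unadjusted p-value under 0.05 in limma. Differences are obese minus lean on log2 of scaled FPKM plus 1, whose median over all genes was -0.002.

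For SESN3, 22 of 31 listed sestrins and amino acid sensors of mTORC1 were tested, and 2 were higher, 1 was lower and 19 were neither, with a median difference of 0.10. RRAGB, a Rag GTPase that carries the amino acid signal to mTORC1, was lower without overlap, with 4.44 ± 0.384 (SD, n = 5) in the lean group and 3.17 ± 0.386 (SD, n = 5) in the obese group (log2 difference -0.39, SE 0.0869, limma adjusted p = 0.0974). It is listed under 2 gene models, of which the more abundant was taken. SESN1, the most abundant gene of the list, had 74.9 ± 11.3 (SD, n = 5) and 64.0 ± 8.54 (SD, n = 5) with an overlap. Of the FOXO factors and targets, 14 of 18 were tested, with 1 higher and 3 lower and a median of -0.18. TXNIP, an inhibitor of thioredoxin, had 628 ± 237 (SD, n = 5) and 323 ± 132 (SD, n = 5), and CAT, the catalase gene, had 680 ± 54.6 (SD, n = 5) and 647 ± 113 (SD, n = 5), and both overlapped.

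Among cullin ligase genes and CDK2, for C10ORF46, 13 of 21 were tested, with 2 higher and 0 lower and a median of 0.01. CUL4A, a scaffold of ubiquitin ligases, was higher without overlap, at 5.78 ± 0.412 (SD, n = 5) in the lean group and 7.37 ± 0.687 (SD, n = 5) in the obese group (log2 difference 0.30, SE 0.0815, limma adjusted p = 0.125). NEDD8, the modifier that activates cullins, had 69.6 ± 10.5 (SD, n = 5) and 68.1 ± 5.49 (SD, n = 5). Of SAND and MYND domain factors, for DEAF1, 10 of 18 were tested, with 0 higher and 1 lower and a median of -0.04, and ZMYND11 (8.51 ± 0.983 and 8.28 ± 0.68, SD, n = 5 each) and SKIL (6.1 ± 1.46 and 7.02 ± 1.02) overlapped.

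Of GAS2 domain and microtubule end genes, for GAS2L1, 7 of 12 were tested, with 2 higher and 0 lower and a median of 0.29. CLIP1, which tracks the growing ends of microtubules, was higher without overlap, with 15.1 ± 0.702 (SD, n = 5) and 18.8 ± 1.64 (SD, n = 5) (log2 difference 0.29, SE 0.0862, limma adjusted p = 0.139), whereas MAPRE2 overlapped (23.0 ± 2.27 and 22.5 ± 10.5, SD, n = 5 each). Of LRRK and RAB genes, for LRRK1, 12 of 18 were tested, with 1 higher and 1 lower and a median of 0.09, and RAB10 (36.9 ± 11.2 and 35.7 ± 3.38, SD, n = 5 each) and RAB7A (31.8 ± 6.15 and 33.9 ± 3.64) overlapped. Of crystallin domain and kinase A anchoring genes, for CRYBG3, 9 of 18 were tested, with 2 higher and 0 lower and a median of 0.12, and PRKAR1A (42.8 ± 6.23 and 36.4 ± 3.58, SD, n = 5 each) and PRKAR2B (46.8 ± 29.7 and 25.3 ± 6.27) overlapped.

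Interferon-stimulated genes lay mostly below 0. Of 17 tested genes out of 29, 0 were higher and 2 were lower, 3 of 17 were above 0 and the median was -0.36, where IFI27L2 had a difference of 1.4. The list does not hold the symbol ISG12(A), so this IFI27 family gene beside IFI27L2 is not among the 17. Its difference was 0.16, with an overlap. STAT2, a transcription factor of the interferon response, overlapped (6.62 ± 0.614 and 6.39 ± 1.02, SD, n = 5 each). Of the cysteine-rich proteins of the intermembrane space and their import pathway, for CHCHD7, 17 of 27 were tested, with 1 higher and 1 lower and a median of -0.09, where CHCHD7 had -1.23. COX17, a copper chaperone, had 350 ± 46.3 (SD, n = 5) and 388 ± 76.8 (SD, n = 5), and NDUFS5, a subunit of complex I, 315 ± 27.3 (SD, n = 5) and 283 ± 57.4 (SD, n = 5). Of the retrotransposon-derived genes, for LDOC1L, 2 of 20 were tested and 0 were called in either direction. LDOC1 had 4.76 ± 0.694 (SD, n = 5) and 4.19 ± 1.4 (SD, n = 5) and PNMA1 3.37 ± 0.306 (SD, n = 5) and 3.03 ± 0.773 (SD, n = 5), each with an overlap.

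Of 14 listed adipocyte markers, 8 were found under the symbols used, and all 8 were tested. The others, ADIPOQ among them, were not found, so the values that follow leave them out. The summed scaled FPKM of the 8 was 1910 to 2400 in lean and 1760 to 2830 in obese pigs, with CD36 as the most abundant. At an unadjusted p-value under 0.05 in limma, 3 of the 8 were higher and 0 lower, with a median difference of 0.27. LEP, the leptin gene, was higher in obese pigs without overlap (29.0 ± 21.0 and 119 ± 28.9, SD, n = 5 each, limma adjusted p = 0.0903), and so was the glycerol channel AQP7 (28.4 ± 2.7 and 49.9 ± 8.69, limma adjusted p = 0.0774). The fat cell regulator PPARG (96.0 ± 20.3 and 90.5 ± 10.9, SD, n = 5 each), the lipase gene LIPE (170 ± 53.6 and 166 ± 27.0) and the fatty acid carrier CD36 (1390 ± 176 and 1150 ± 443) overlapped. Fibroblast and preadipocyte markers summed to 259 to 800 in lean and 255 to 628 in obese pigs, with 9 of 13 tested, 0 of them above 0 in the difference, 3 lower at an unadjusted p-value under 0.05, a median of -0.71 and 1 listed at 0 in all libraries. Macrophage and leukocyte markers (2 of 14 tested, 1 at 0) summed to 4.22 to 9.04 and 4.16 to 8.33, and endothelial and pericyte markers (3 of 12 tested) to 2.53 to 18.3 and 6.24 to 14.1. Genes of the response to tissue dissociation (14 of 22 tested) summed to 722 to 2080 in lean and 511 to 1450 in obese pigs, with a median difference of -0.86 and 6 lower and 1, HSPB1, higher at an unadjusted p-value under 0.05 in limma. The part of these differences in the values of the 10 genes was not tested.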

How the data were processed

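RNAseq, mDNAcap and RRBS values of adipocytes were taken as the authors deposited them, on Sscrofa10.2. The deposited FPKM values were estimated by the authors with Cufflinks 2.2.0 after mapping of ribosome-depleted, paired-end libraries with STAR 2.3.1, as the submitters' processing notes list them. The tables hold 25337 entries, of which 52 share an identifier and were added up, and 9 genes with a failed estimate were left out. The deposited normalized counts of mDNAcap came from diffReps 1.55.4, with which the authors moved a window of 1000 bases along the genome by 100 bases at a time and kept what passed a G-test at 0.0001. The deposited methylation fractions of RRBS are group means that the authors obtained from CpGs with at least 5 reads, and were multiplied into percent. The authors' cuffdiff table holds group means, fold changes and p-values, and a further file lists clusters of regions. These and the fold changes and p-values beside the regions were not used.

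FPKM values were scaled by median-of-ratios size factors and the libraries of pig-572 averaged. Genes whose mean FPKM reached 1 entered limma 3.58.1 in R 4.3.3, as log2 after a pseudocount of 1, with the trend option of eBayes, Benjamini-Hochberg adjustment and a threshold of 0.05. Genes in which all values of a group lie on one side of the other group were called without overlap. The same limma fit was run on mDNAcap counts, and both fits were tested on simulated data. P-values set the difference between the groups against the spread between these animals. Python 3.11.15, numpy 2.4.6, pandas 2.3.3 and matplotlib 3.10.9 were used. Names came from the tables for 17794 genes and from a reference list for 1157. Genes of the related and marker lists that were not tested had no entry under the symbol used or did not pass the filters above. The depth of single RNAseq libraries and of single RRBS regions is unknown, and the study states no more than averages or ranges over libraries. The mean mDNAcap read count per bin was 0.63 to 7.04 in lean and 0.44 to 4.1 in obese animals.

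The 10 genes, the related lists and the marker lists were chosen with earlier results of these data known. Named were all 10 genes, every region and every tested gene within 50 kb of them, up to 3 genes without overlap per related list, filled up to 2 by the most abundant, and the closest gene of each by within-group correlation. ADORA1, RASL10A, LEP, AQP7, PPARG, LIPE, CD36 and HSPB1 were named after their values were seen. Alternatives were other scalings, filters, pseudocounts, libraries of pig-572, distances, and leaving out each pig. The related list for SYDE1 and 1 gene of another list are not reported here.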

Additional observations from a re-analysis of the deposited data

Results flagged for a closer look

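In 50 groups of 5 pigs (the 10 genes and their tested neighbours within 50 kb), the highest or lowest pig was set against the others by Dixon's criterion, which flags about 1 in 20 groups by chance. The 10 genes had been chosen for a small spread, so nothing is read from their having no such pig. Among the 30 groups of the neighbouring genes, 4 values were found, where chance gives about 1.5. TMEM80, beside DEAF1, had 2.27 scaled FPKM in lean pig-525, where the other lean pigs had 2.84 to 3.01. It also had 3.33 in obese pig-572, where the others had 2.28 to 2.55. TALDO1, an enzyme of the pentose phosphate pathway near DEAF1, had 338 in obese pig-524, below the 419 to 450 of the others. AP1B1, an adaptor subunit of clathrin coats near GAS2L1, had 6.99 in obese pig-433, above the 5.15 to 5.56 of the others.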

How the results depend on the processing

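No paired analysis was possible because the lean and obese pigs are different animals and share no more than a number. With FPKM as deposited, 9 of the 10 genes kept their separation, and 10 of 10 did under the other scalings and with each library of pig-572. Leaving out a pig cannot undo a separation or turn its sign, and a filter does not change the values, so nothing is read from those settings for the 10 genes. Over all genes tested, 424 had no overlap, 236 in FPKM as deposited, 206 at a mean FPKM of at least 5, and 463 to 1061 with 1 pig left out. The most, 1061, came without lean pig-402, and 777, 721 and 660 came without obese pig-433, obese pig-473 and lean pig-407. The count of limma calls among RNAseq genes, 1, was 0 in FPKM as deposited (1396 at an unadjusted p-value under 0.05), 2 when scaled to the sum without small RNA genes, 10 with pig-572(B) alone, 179 with both libraries of pig-572 entered separately, 5 without a filter, 6 at a mean FPKM of at least 5, and 1 to 165 with 1 pig left out, the most without lean pig-402. It was 2 without lean pig-407, lean pig-577 or obese pig-529. In the setting with 179, libraries of the same pig were counted as separate animals, so that is no count over pigs. Of the mDNAcap regions near the genes that passed in limma, 9 within 50 kb, 5 lay within 10 kb, 4 on a locus and 14 within 100 kb. With the read count per bin over the library constant entered as a covariate, 0 were left. RRBS regions within 50 kb numbered 1, and 3 with at least 3 pigs per group, 2 within 100 kb and 0 on a locus. The number of neighbours without overlap, 1 of 15, was 1 to 3 under the other scalings. The cause was not tested for these changes.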
